A study of Mus musculus with 6 samples.

Results

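The 10 genes described here encode the cell surface core proteins that carry heparan sulfate (HS), the syndecans Sdc1, Sdc2, Sdc3 and Sdc4 and the glypicans Gpc1, Gpc2, Gpc3, Gpc4, Gpc5 and Gpc6. They were taken by gene name as 10 of the 43280 rows of an unfiltered table of raw RNA-seq counts. The RNA came from whole submandibular glands (SMGs), a major salivary gland, of female mice on a C57BL/6 background. The 3 wildtype (WT) libraries carried neither allele. The 3 libraries labelled Hs3st3a1;3b1 DKO came from double-knockout mice lacking a pair of HS 3-O-sulfotransferases, which add a sulfate to the glucosamine of the finished chain. In these mice Hs3st3a1 carries a zinc finger nuclease frameshift deletion in exon 1, for which several founders were kept, Hs3st3b1 carries a LacZ cassette, and both lesions sit on the same chromosome in every cell of the body. The study used adult glands, 3 in each group, the same as the number of libraries. The animals' exact age and the founder line of each gland were not given. In each group the libraries are numbered 1, 4 and 5.

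HS chains are long sulfated sugar chains that bind growth factors, their receptors and matrix proteins. Syndecans are single-pass membrane proteins with a short cytoplasmic tail, and their ectodomains can be cut off the cell by proteases. Glypicans are held in the outer leaflet of the membrane by a glycosylphosphatidylinositol (GPI) anchor and are released by lipases such as Notum. In both families the chain is built on a serine that is followed by a glycine, through a linker that starts with xylose. In salivary glands, HS is known for its part in fibroblast growth factor signaling during epithelial branching.

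The attachment sites are the feature that the 10 genes have in common, and the HS that the missing enzymes would have modified is built there, so 1 stretch of 45 coding bases is shown for each. The sequence is that of GRCm38, read 5′ to 3′ on the coding strand in frame. Capitals mark every serine codon followed by a glycine codon, and not every such pair need carry a chain.

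Sdc1: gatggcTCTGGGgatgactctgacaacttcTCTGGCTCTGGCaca

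Sdc2: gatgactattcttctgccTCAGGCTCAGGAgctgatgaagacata

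Sdc3: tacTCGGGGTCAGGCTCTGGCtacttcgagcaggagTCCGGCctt

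Sdc4: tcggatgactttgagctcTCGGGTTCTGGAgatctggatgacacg

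Gpc1: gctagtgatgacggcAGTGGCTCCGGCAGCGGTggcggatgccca

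Gpc2: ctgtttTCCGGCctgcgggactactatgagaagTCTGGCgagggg

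Gpc3: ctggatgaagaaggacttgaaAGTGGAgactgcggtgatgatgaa

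Gpc4: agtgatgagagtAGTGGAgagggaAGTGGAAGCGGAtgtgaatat

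Gpc5: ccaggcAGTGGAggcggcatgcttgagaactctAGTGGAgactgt

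Gpc6: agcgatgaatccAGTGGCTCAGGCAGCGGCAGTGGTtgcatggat

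The syndecan stretches lie near the start of the coding sequence, between coding base 103 in Sdc1 and coding base 273 in Sdc3, within exon 2 or across exons 2 and 3. On the genome they span chr12:8789443-8789487 (Sdc1), chr15:33017186-33023665 (Sdc2), chr4:130816941-130818604 (Sdc3) and chr2:164429719-164431223 (Sdc4, minus strand), introns included. In 5 of the 6 glypicans the stretch lies towards the end instead, from coding base 1438 in Gpc1 to coding base 1713 in Gpc5, next to the part that is replaced by the GPI anchor. These 5 span chr1:92858027-92858372 (Gpc1, exons 8 and 9), chrX:52314904-52314948 (Gpc3, exon 7), chrX:52053683-52053817 (Gpc4, exons 8 and 9), chr14:115788221-115788265 (Gpc5, exon 7) and chr14:117964874-117974927 (Gpc6, exons 9 and 10). The stretch shown for Gpc2 lay early, in exon 3 at chr5:138278389-138278433, on the minus strand, as are Gpc3 and Gpc4. That stretch held 2 of the 7 pairs of Gpc2. For every gene the window with the most pairs was taken, and the earliest where several held equally many. Over the whole coding sequence, serine-glycine pairs numbered 5 in Sdc1, 3 in Sdc2, 8 in Sdc3 and 3 in Sdc4. The glypicans held 6 (Gpc1), 7 (Gpc2), 2 (Gpc3), 4 (Gpc4), 7 (Gpc5) and 5 (Gpc6).

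The 4 syndecans also share the end of their cytoplasmic tail, which binds PDZ-domain adaptors such as syntenin. The last 30 coding bases before the stop codon are shown to place Sdc2 and Sdc3, the 2 genes called below, among the 4. Capitals mark bases identical in all 4 genes.

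Sdc1: aAacccaccaagcaggAgGAGTTcTAcGCc

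Sdc2: cAgaaggcacccactaAgGAGTTtTAtGCa

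Sdc3: aAacctgacaagcaggAgGAGTTcTAcGCt

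Sdc4: aAaaaagcccccaccaAtGAGTTcTAcGCa

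Of these 30 bases 11 were shared by all 4. Sdc1 and Sdc3 had 26 in common and Sdc2 and Sdc4 had 22, while the other pairs had 13 to 17. Sdc2 and Sdc3, which are compared below, were thus among the least alike, with 13.

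The 10 genes lie on 8 chromosomes. In GRCm38, Sdc1 is at chr12:8771323-8793715, Sdc2 at chr15:32920723-33034935, Sdc3 at chr4:130792537-130826319, Gpc1 at chr1:92831645-92860779, Gpc5 at chr14:115092215-116525179 and Gpc6 at chr14:116925315-117976544, all on the plus strand. Sdc4 at chr2:164424247-164443887, Gpc2 at chr5:138273655-138280005, Gpc3 at chrX:52272426-52613950 and Gpc4 at chrX:52053021-52165252 are on the minus strand. Gpc3 and Gpc4 are neighbours on X with 107 kb between them, and Gpc5 and Gpc6 are neighbours with 400 kb between them. No stretch of 50 bases was shared between the transcripts of any 2 of the 10 genes. For Gpc2, 49.7% of its 50-base stretches were shared with the overlapping Gm43720, which is annotated on the same strand, so the reads of Gpc2 are uncertain. For Gpc1, 18% were shared with Ankmy1 on the opposite strand, and for Sdc3, 5.36% with Gm26716, also opposite. The libraries did not record strand, so reads of such overlaps cannot be told apart.

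Each library held 23674258 to 29611975 counts. In all, 18606 rows were tested with DESeq2's Wald test, and 539 of them were called at an adjusted p under 0.05, 189 higher and 350 lower in DKO. The targeted genes were not lower: the log2 fold change, DKO over WT, was -0.22 for Hs3st3a1 (SE 0.61, adjusted p = 0.947) and -0.04 for Hs3st3b1 (SE 0.24, adjusted p = 0.976). The counts of both genes thus do not show the loss that the DKO label names. The reason was not tested, and where the cassette lies was not given. WT and DKO below mean the libraries so labelled, and every direction rests on those labels. Counts differed between the libraries of each group by more than sampling noise, so none was treated as a repeat deposit of another. The p-values measure the spread between these glands, which are labelled only by number. Since the RNA is from whole glands, fewer cells of a type and less RNA per cell cannot be told apart in any result below.

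Sdc4, the most widely expressed syndecan and a partner of integrins at focal adhesions, was by far the most abundant of the 10 transcripts, and Gpc4 led the glypicans. Levels between genes were compared as normalized counts per kb of exon. Sdc4 stood at 995 ± 72.8 per kb in WT and 1088 ± 165 in DKO (SD, n = 3), which was 70.2% ± 3.37 and 73.9% ± 2.33 of the summed level of the 10 genes. Gpc4 followed at 158 ± 11.8 per kb in WT and 180 ± 9.66 in DKO.

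**Figure D1:**
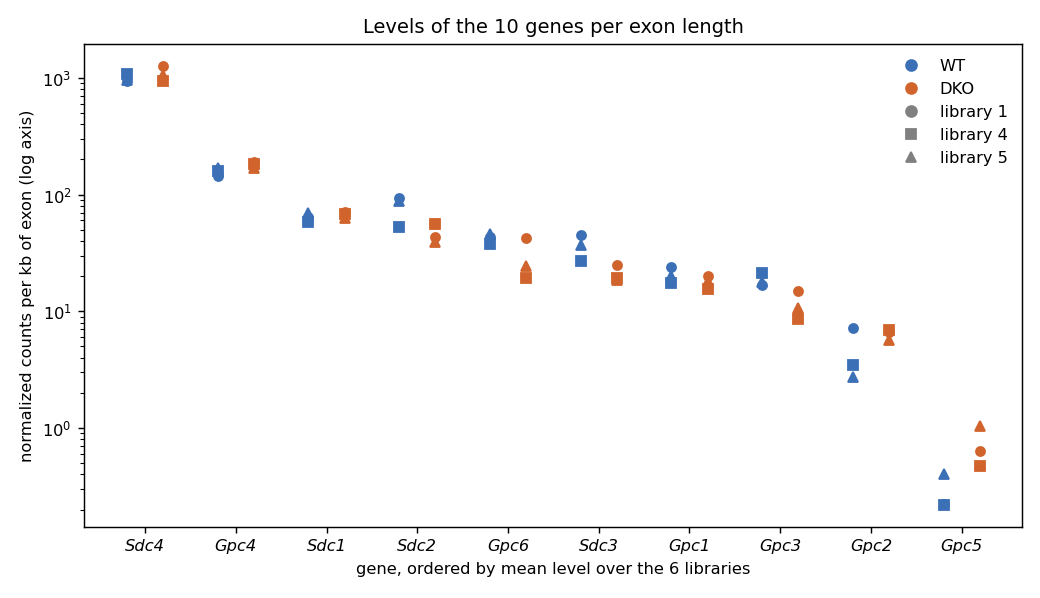
Levels of the 10 genes as normalized counts per kb of exon on a log axis, with WT (blue) beside DKO (orange), 1 point per library and symbols for the library number. Genes are ordered by their mean over the 6 libraries, from Sdc4 at 1041 per kb down to Gpc5 at 0.498 per kb.

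Over the 6 libraries the order of mean levels ran Sdc4 (1041 per kb), Gpc4 (169), Sdc1 (65.7), Sdc2 (62.0), Gpc6 (35.6), Sdc3 (28.7), Gpc1 (19.2), Gpc3 (15.0), Gpc2 (5.42) and Gpc5 (0.498). Each neighbouring pair was tested within libraries by an exact two-sided permutation test with sign flips, for which 6 libraries allow no p below 0.03125. The pairs were taken from the order in these same libraries, WT and DKO together. The p-values thus describe how steady each step was and do not test an order set beforehand. After adjustment over the 9 pairs, 6 steps reached an adjusted exact p = 0.0469, with the same order in 6 of 6 libraries. These were Sdc4 over Gpc4 (6.14-fold), Gpc4 over Sdc1 (2.57-fold), Sdc2 over Gpc6 (1.73-fold), Sdc3 over Gpc1 (1.43-fold), Gpc3 over Gpc2 (2.81-fold) and Gpc2 over Gpc5 (11.9-fold). The steps above and below Gpc2 rest on reads that are uncertain, as given above. The remaining 3 of the 9 steps did not exceed the spread between libraries. Sdc1 was above Sdc2 in 4 of 6 libraries (1.11-fold, adjusted exact p = 0.5), Gpc6 above Sdc3 in 4 of 6 (1.25-fold, adjusted exact p = 0.141) and Gpc1 above Gpc3 in 5 of 6 (1.33-fold, adjusted exact p = 0.121). With the longest transcript as the length, Sdc2 exceeded Gpc6 in 4 of 6 libraries only (1.12-fold) and Sdc3 exceeded Gpc1 in 5 of 6 (1.40-fold), whereas Gpc6 exceeded Sdc3 in 6 of 6 (1.61-fold).

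Between the groups, 2 of the 10 genes were called, Sdc2 and Sdc3, both lower in DKO, and none was called higher. Among all rows tested, 1.88% were called lower and 1.02% higher. At an unadjusted p under 0.05 the same test took in 3 of the 10 genes (Sdc2, Sdc3 and Gpc6), against 12.2% of all rows. The median log2 fold change of the 10 genes was -0.05, and that of all rows tested was 0.00108. The WT and DKO libraries did not overlap for 4 of the 10 genes, lower in DKO for Sdc3 and Gpc3 and higher for Gpc4 and Gpc5, while 20.3% of all rows did not overlap. Gpc5 separated only after normalization, since WT 5 and DKO 4 both had 2 raw counts.

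**Figure D2:**
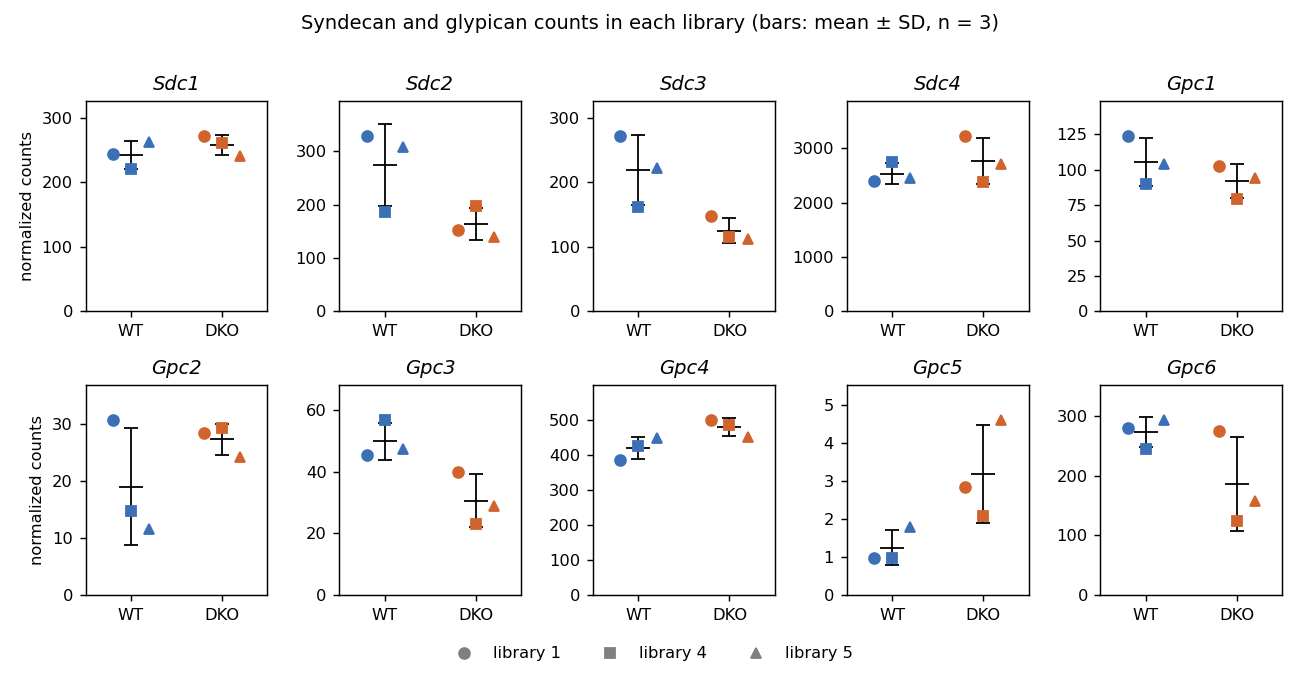
Normalized counts of each gene in each library, with WT in blue, DKO in orange, symbols for the library number, and bars for mean ± SD (n = 3). The vertical axes start at 0 and differ between panels. Every DKO library lies below every WT library for Sdc3 and Gpc3, whereas for Sdc2 the WT library 4 (187) lies below the DKO library 4 (198).

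Among the syndecans, Sdc3, first known from neural tissue, had 271, 162 and 222 normalized counts in the WT libraries 1, 4 and 5. In the DKO libraries 1, 4 and 5 it had 148, 116 and 112. The lowest WT library thus stood above the highest DKO library. Sdc3 fell from 219 ± 54.5 to 125 ± 19.8 (SD, n = 3). On the log2 scale the difference was -0.80 with an SE of 0.23 (adjusted p = 0.0239 by DESeq2 with Benjamini-Hochberg adjustment over all rows). This is 42.6% lower, with a 95% interval of the fold from 0.420 to 0.786.

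Sdc2, the syndecan of mesenchymal and endothelial cells, had 328, 187 and 308 normalized counts in the WT libraries 1, 4 and 5. Its DKO libraries 1, 4 and 5 had 153, 198 and 140. WT libraries 1 and 5 were high, but WT library 4 was within the range of the DKO libraries. Sdc2 fell from 274 ± 76.3 to 163 ± 30.4 (SD, n = 3) and the log2 difference was -0.75 with an SE of 0.24 (adjusted p = 0.0462 by DESeq2). This is 40.4% lower, with a 95% interval of the fold from 0.433 to 0.820. In WT the coefficient of variation was 27.8% for Sdc2 and 24.9% for Sdc3, against 8.93% for Sdc1 and 7.31% for Sdc4.

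Neither call was made by every test or without every library. edgeR's quasi-likelihood test gave adjusted p = 0.160 for Sdc3 and 0.198 for Sdc2, and called none of the 10 genes and 0.0537% of all rows. At an unadjusted p under 0.05 edgeR took in 3 of the 10 genes, against 15.0% of all rows. Left out 1 at a time, the libraries moved the log2 fold change of Sdc3 between -0.97 and -0.62 and that of Sdc2 between -0.96 and -0.60. With DESeq2, Sdc3 lost its call without WT 1 (adjusted p = 0.363), WT 5 (0.233), DKO 4 (0.190) or DKO 5 (0.229), and kept it without WT 4 (0.00162) or DKO 1 (0.0179). Sdc2 kept its call without WT 4 only (5.66e-04), and lost it without WT 1 (0.474), WT 5 (0.444), DKO 1 (0.159), DKO 4 (0.0662) or DKO 5 (0.357).

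**Figure D3:**
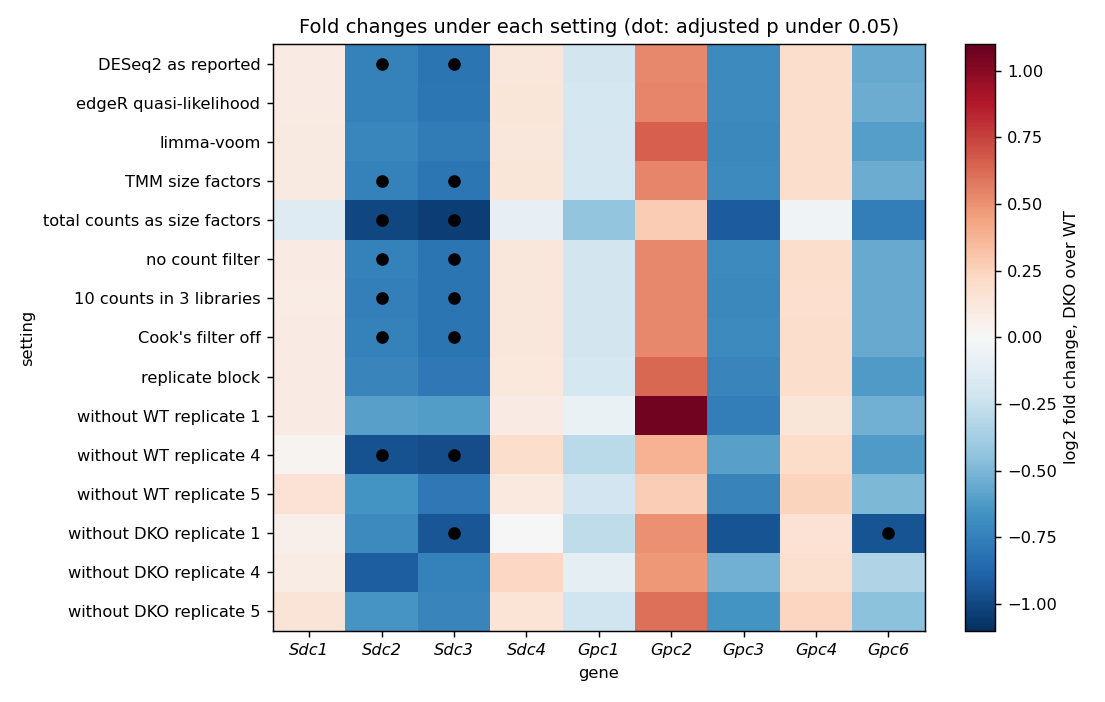
Log2 fold changes, DKO over WT, of 9 of the 10 genes (columns) under each setting of the test (rows), from blue (lower in DKO) to red (higher), with a dot where the adjusted p was under 0.05. Gpc5 is left out for its low counts. Sdc2 and Sdc3 are blue in every row, with dots in 7 of the 15 rows for Sdc2 and 8 of 15 for Sdc3, and Gpc6 has its only dot without DKO replicate 1.

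Sdc1, the syndecan of epithelia and of plasma cells, had 243, 220 and 263 normalized counts in the WT libraries and 271, 261 and 241 in the DKO libraries. The groups overlapped. The log2 fold change of Sdc1 was 0.09 ± 0.16 (SE), with a 95% interval from -0.22 to 0.40 (DESeq2, adjusted p = 0.907). Sdc4 had 2407, 2748 and 2451 in WT and 3220, 2385 and 2705 in DKO, again overlapping, with DKO 1 the highest of the 6. The log2 fold change of Sdc4 was 0.13 ± 0.12 (SE), with an interval from -0.12 to 0.37 (DESeq2, adjusted p = 0.768). Neither gene was called, and any change within these bounds was not detectable here. The difference between the log2 fold changes of the called and uncalled syndecans was not tested.

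**Figure D4:**
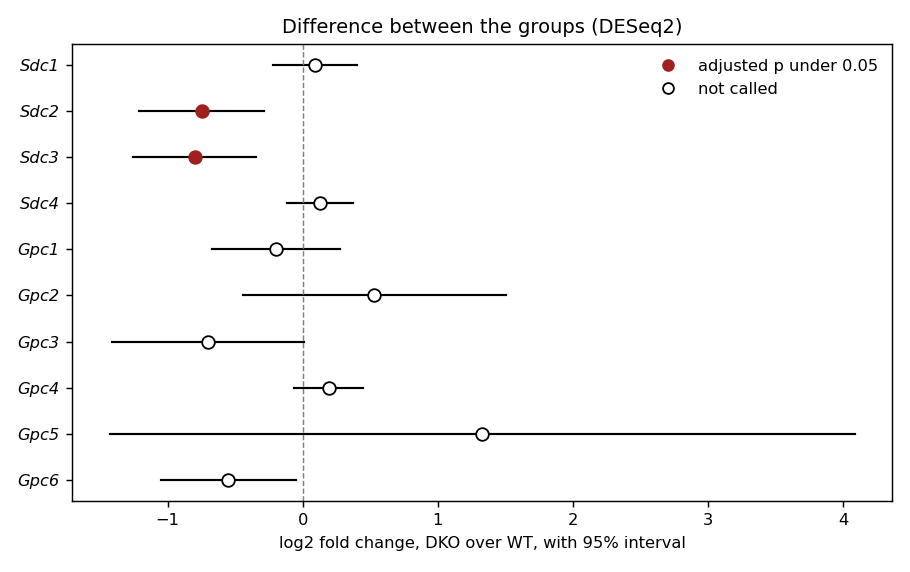
Log2 fold change of each gene, DKO over WT, from DESeq2, with lines for the 95% interval and filled points for an adjusted p under 0.05. Sdc2 (-0.75) and Sdc3 (-0.80) are filled, and the interval of Gpc5 runs from -1.43 to 4.09.

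Sdc4 made up most of the syndecan level. The 4 syndecans summed to 1173 ± 37.9 per kb in WT and 1222 ± 165 in DKO (SD, n = 3). Without Sdc4 the sum was 178 ± 34.9 and 135 ± 11.9, and the ranges overlapped, since WT 4 had 138 and DKO 4 had 144. The ratio of Sdc4 to the sum of the other 3 was 4.68, 7.82 and 4.97 in the WT libraries and 9.08, 6.50 and 8.74 in the DKO libraries, overlapping through WT 4 and DKO 4. All 10 genes together summed to 1418 ± 36.5 per kb in WT and 1468 ± 187 in DKO.

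Among the glypicans no gene was called. Gpc3, which binds Hedgehog and WNT ligands and is the gene of the Simpson-Golabi-Behmel overgrowth syndrome, was measured at 45.5, 56.7 and 47.5 normalized counts in the WT libraries, and at 39.8, 23.0 and 28.8 in the DKO libraries. The groups did not overlap. The log2 fold change of Gpc3 was -0.70 ± 0.36 (SE), with a 95% interval from -1.41 to 0.0068 (DESeq2, adjusted p = 0.371). It stayed between -0.95 and -0.53 when any 1 library was left out, without a call.

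Gpc6, a glypican of growth plate cartilage and mesenchyme, was measured at 280, 245 and 293 normalized counts in the WT libraries, and at 274, 124 and 158 in the DKO libraries. DKO 1 stood among the WT libraries, and DKO 4 and DKO 5 stood below all 3. The log2 fold change of Gpc6 was -0.55 ± 0.25 (SE), with an interval from -1.05 to -0.05 (DESeq2, adjusted p = 0.277). Without DKO 1 it was -0.95 and passed the threshold (adjusted p = 6.70e-04), and without DKO 4 it was -0.33 (adjusted p = 0.763).

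Gpc4, the leading glypican here, binds fibroblast growth factors and WNT ligands. In the WT libraries it reached 386, 424 and 448 normalized counts, and in the DKO libraries 499, 486 and 450. The groups did not overlap, but WT 5 and DKO 5 were nearly level. The log2 fold change of Gpc4 was 0.19 ± 0.13 (SE), with an interval from -0.06 to 0.45 (DESeq2, adjusted p = 0.596). With total counts in place of median-of-ratios size factors the values of Sdc1, Sdc4 and Gpc4 turned to -0.15, -0.09 and -0.04. That scaling moved the median of all rows to -0.23, and relative to it all 3 remained positive.

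Gpc1, a co-receptor for fibroblast growth factors, reached 124, 90.0 and 104 normalized counts in the WT libraries, with 102, 79.4 and 94.5 in DKO. The groups overlapped, and the log2 difference was -0.20 ± 0.24 (SE), with an interval from -0.67 to 0.27 (DESeq2, adjusted p = 0.842). Gpc2, a glypican of developing neurons, had 30.7, 14.7 and 11.6 in WT and 28.5, 29.3 and 24.2 in DKO. WT 1 alone was as high as the DKO libraries. The log2 difference for Gpc2 was 0.53 ± 0.50 (SE, DESeq2, adjusted p = 0.753), and 1.06 without WT 1, with no call. Gpc5 had 1, 1 and 2 raw counts in WT and 3, 2 and 4 in DKO, at or near the floor of 3 counts. Its interval, a fold from 0.371 to 17.0, covers counting error and spread, and a difference was not detectable at this depth.

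The 6 glypicans summed to 244 ± 9.71 per kb in WT and 246 ± 23.7 in DKO (SD, n = 3). Without Gpc4 they were 86.2 ± 5.82 and 65.2 ± 17.5, with DKO 1 (84.7) inside the WT range of 80.2 to 91.9. For the neighbours on X, the ratio of Gpc4 to Gpc3 per kb was 8.60, 7.58 and 9.57 in WT and 12.7, 21.4 and 15.8 in DKO, so that every DKO library was above every WT library. Since Gpc4 was higher and Gpc3 lower in DKO, each without overlap, the ratios had to separate. This ratio was formed after the values of both genes had been seen and is given with no test.

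Of 59 genes that build, edit, anchor or bind these core proteins, 54 were tested, and 1 was called lower and none higher at the backgrounds of 1.88% and 1.02% given above. At an unadjusted p under 0.05 there were 10 of the 54, against 12.2% of all rows. The called gene was Tgfbr3 (betaglycan), a TGF-beta co-receptor that can itself carry HS. In WT it stood at 765, 790 and 785 normalized counts, and in DKO at 680, 507 and 540, without overlap. Tgfbr3 fell by 0.44 on the log2 scale (SE 0.14, DESeq2 adjusted p = 0.0438). The call held without DKO 1 (adjusted p = 2.80e-04) and was lost without WT 1 (0.229), WT 4 (0.137), WT 5 (0.300), DKO 4 (0.211) or DKO 5 (0.304), and by edgeR (0.170).

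In the same list of 7 other HS core proteins, the median log2 fold change was -0.18. Cd44, a hyaluronan receptor of which some isoforms carry HS, stood at 0.38 on that scale (adjusted p = 0.136 by DESeq2) and passed the threshold without WT 4 (adjusted p = 0.00306). Perlecan (Hspg2), the large HS proteoglycan of basement membranes, had -0.19 (adjusted p = 0.541).

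None of the 7 linkage region enzymes, which build the linker on the serine, was called. Their summed normalized counts were 3270 to 3565 in WT and 3815 to 3935 in DKO, not overlapping. Fam20b, the kinase that phosphorylates the xylose, had a log2 difference of 0.25 (adjusted p = 0.115 by DESeq2) and B3gat3, which adds the last sugar of the linker, had 0.31 (adjusted p = 0.298). Fam20b made up most of the sum, with 1904 ± 106 normalized counts in WT and 2261 ± 59.4 in DKO (SD, n = 3). Xylt1, which adds the first xylose and is named after its values were seen, went the other way, with 25.7, 31.3 and 34.9 in WT against 21.8, 15.7 and 16.1 in DKO (log2 difference -0.77, not called). None of the 5 chain polymerases was called. Ext2 had 0.18 (adjusted p = 0.607) and its partner Ext1 had -0.14 (adjusted p = 0.811).

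Of the 14 listed chain modifying enzymes other than the targeted pair, 9 had enough counts to be tested and none was called, while Ndst4, Hs6st3, Hs3st2, Hs3st4 and Hs3st5 had fewer than 10 counts in all 6 libraries together. Hs3st6, another 3-O-sulfotransferase, was low in all libraries, with 9.90, 6.85 and 11.6 normalized counts in WT against 1.90, 1.05 and 3.46 in DKO. The groups did not overlap, as for 20.3% of all rows, and the log2 difference was -2.17 with an SE of 0.98 (adjusted p = 0.260 by DESeq2). Hs3st6 is named for the smallest unadjusted p of its list, a choice that favours separated groups. Ndst2, an N-deacetylase and N-sulfotransferase, had -0.20 (adjusted p = 0.711).

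The 12 genes that edit the chains or release the core proteins held none called and 5 at an unadjusted p under 0.05, against 12.2% of all rows. Their median log2 fold change was -0.21, against 0.00108 for all rows. Hpse (heparanase), which cuts HS chains, stood at 48.5, 32.3 and 29.6 normalized counts in WT against 16.1, 12.5 and 13.8 in DKO. Sulf1, which removes 6-O-sulfates outside the cell, had 123, 126 and 196 in WT and 102, 74.2 and 91.1 in DKO. Neither overlapped between the groups, and neither was called (log2 fold change -1.37, DESeq2 adjusted p = 0.0655 for Hpse, and -0.73, adjusted p = 0.0902 for Sulf1). Both are named for the smallest unadjusted p of the 12, a choice that favours separated groups. Of the 12 genes, 5 did not overlap and were lower in DKO and 1 was higher, against 20.3% of all rows in either direction. None of the 9 cytoplasmic partners of syndecans was called, with Ezr, a linker to actin, at -0.13 (adjusted p = 0.734) and Tiam1, a Rac1 activator, at 0.16 (adjusted p = 0.768). None of the 5 subunits of the GPI transamidase, which attaches the anchor of glypicans, was called. Pigu was at -0.10 (adjusted p = 0.888) and Gpaa1 at 0.06 (adjusted p = 0.923).

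Cell type markers moved between the same libraries and are given beside these results. Of 57 listed markers 52 were tested, and 12 were called lower and 3 higher by DESeq2, against 1.88% and 1.02% of all rows. edgeR called none of them, and 0.0537% of all rows. With 1 library left out the 15 called became 6 (without WT 5), 7 (without WT 1, DKO 4 or DKO 5), 18 (without WT 4) or 21 (without DKO 1). All 6 myoepithelial markers (Acta2, Cnn1, Myh11, Tagln, Mylk and Krt14) were called lower, with a summed 9924 to 10789 normalized counts in WT and 5370 to 7083 in DKO. Of 5 macrophage markers, Mrc1 and Adgre1 were called lower and all 5 had negative values, with sums of 1140 to 1830 in WT and 783 to 1083 in DKO. Of 6 fibroblast markers, Dcn and Pdgfra were called lower and all 6 had negative values, with sums of 11095 to 15736 in WT and 8351 to 11896 in DKO.

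The acinar markers, which are defining for this gland, summed to 8560170 to 10394400 normalized counts in WT and 10218600 to 12598200 in DKO. Spt1 made up most of these sums, with 8298700 to 10113800 in WT and 9948670 to 12174200 in DKO. Its groups overlapped and it was not called (DESeq2 adjusted p = 0.0758). All 5 acinar markers had positive values and Aqp5 was called higher. Of 6 genes listed as duct markers, Kcnn4 was called higher, as Aqp5 was, and Egf lower. Whether Kcnn4 marks duct cells in this gland was not tested. None of 5 endothelial or 5 Schwann cell markers was called, though all 5 endothelial markers had positive values (median log2 fold change 0.28). Of 6 genes listed as plasma cell markers Derl3 was called higher, while the other 5 had negative values, and the median of the 6 was -1.03. Derl3 averaged 2242 normalized counts in WT and 3127 in DKO, against 1204 and 602 for Jchain and 21.6 and 9.58 for Mzb1. That Derl3 marks plasma cells in this gland was not tested. The B cell sum was 161 in WT 1, 13.7 and 38.5 in the other WT libraries and 6.92 to 10.4 in DKO, and Ms4a1 was called lower. Adipocyte sums were 14.8 or less in every library and skeletal muscle sums 52.8 or less, with Myh4 at 0.

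**Figure D5:**
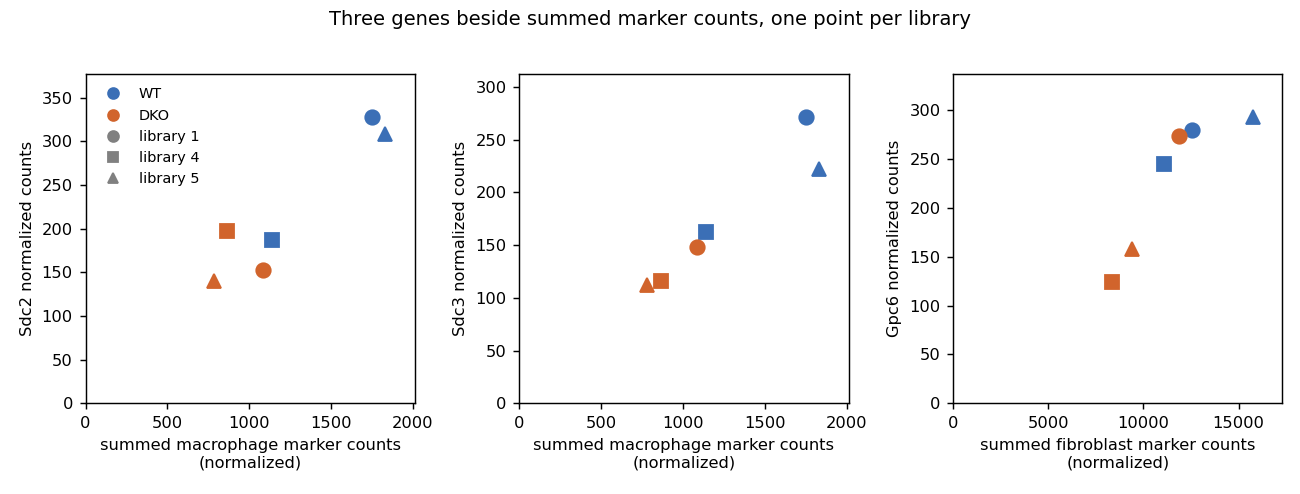
Normalized counts of Sdc2 and Sdc3 against summed macrophage markers, and of Gpc6 against summed fibroblast markers, with 1 point per library, WT in blue and DKO in orange. WT 1 and WT 5 are the highest in both macrophage panels, and WT 4 lies near the DKO libraries.

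WT 1 and WT 5, the libraries highest for Sdc2 and Sdc3, were also the highest for the summed macrophage markers. The same libraries were the highest for the myoepithelial, fibroblast and B cell sums, so the rank was shared, but the gap to WT 4 differed. In WT 1, 4 and 5 the macrophage sums were 1751, 1140 and 1830. The myoepithelial sums were 10789, 9924 and 10222, and the fibroblast sums 12563, 11095 and 15736. Within DKO, library 4 had the most Sdc2 (198 normalized counts) but a macrophage sum of 864, against 1083 in DKO 1. Per 100 summed macrophage marker counts, Sdc3 stood at 15.5, 14.2 and 12.1 in the WT libraries and 13.7, 13.4 and 14.3 in the DKO libraries. These overlapped, with SDs of 1.69 and 0.446 around nearly equal means (n = 3). Sdc2 stood at 18.7, 16.4 and 16.8 in WT and 14.1, 22.9 and 17.8 in DKO, overlapping as well (17.3 ± 1.23 and 18.3 ± 4.39).

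Per 100 myoepithelial marker counts, Sdc3 stood at 2.11 ± 0.442 in WT and 2.06 ± 0.0529 in DKO, and Sdc2 at 2.64 ± 0.660 and 2.72 ± 0.628. Per 100 fibroblast marker counts, Sdc3 stood at 2.16, 1.46 and 1.41 in WT and 1.24, 1.39 and 1.19 in DKO. The groups did not overlap, though WT 5 and DKO 4 were nearly level. Sdc2 per 100 fibroblast marker counts stood at 2.61, 1.68 and 1.96 in WT and 1.28, 2.37 and 1.48 in DKO, overlapping. For Gpc6 the fibroblast ratio was 2.23, 2.20 and 1.86 in WT and 2.30, 1.49 and 1.68 in DKO, with DKO 1 the highest of the 6. These ratios were formed after the values had been seen, and the part of any cell type in the lower Sdc2 and Sdc3 was not tested.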

How the data were processed

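The authors made unstranded Nextera XT libraries, sequenced them on a HiSeq2500 and deposited raw counts per gene symbol. The submitters' processing notes list STAR 2.5.2a, DESeq2, edgeR and limma, and the builds GRCm38, mm10 and GRCh38 without roles. The counting tool and annotation are not given in the sources used here. The deposited filtered counts and CPM values were not used, and 0 sample columns were unmapped.

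A row was tested if its counts over the 6 libraries added up to 10 or more, by DESeq2 1.42.0 (R 4.3.3): median-of-ratios size factors, two-sided Wald test, default filters (independent filtering at 0.1), Benjamini-Hochberg adjustment over all rows, threshold 0.05. An adjusted p was missing for 2556 rows, Gpc5 among them. Intervals are at 95%. Alternatives were edgeR 4.0.16, limma-voom (limma 3.58.1), TMM or total-count scaling, other filters, a block for the replicate number, and leaving out single libraries. Scripts were tested on simulated data. Exon lengths, coordinates and coding sequence are from GENCODE M21 (GRCm38), which matched 91.2% of row names and all 10 genes. Jchain and Adgre1 were matched to rows Igj and Emr1 through RefSeq synonyms.

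The members and lists were chosen with earlier results of these data known. Named were all 10 members, the targeted genes, every listed pathway gene that passed the threshold, and up to 2 more of each pathway list by smallest unadjusted p. Marker genes were given by list, with defining markers named.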

Additional observations from a re-analysis of the deposited data

How the results depend on the processing

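DESeq2 with TMM factors, without a count filter, with at least 10 counts in 3 libraries or without Cook's filter kept the calls of Sdc2 and Sdc3. Genes called numbered 539 in the reported test, 10 by edgeR, 7 by limma-voom, 1472 with total counts as size factors (62 higher and 1410 lower) and 343 with the replicate number as a block. With 1 library left out they ranged from 146 (without WT 5) to 815 (without WT 4). Of the 10 syndecan and glypican genes, 0 were called by edgeR, by limma-voom and with the block, and 0 to 2 with 1 library left out. At an unadjusted p under 0.05, edgeR took in 3 of them and limma-voom 4, against 2789 and 2609 of all 18606 rows. Without DKO 1 the 2 called were Sdc3 and Gpc6. Of the pathway genes, 0 were called by edgeR, by limma-voom and with the block. With total counts 6 were called, all lower, and 0 to 1 with 1 library left out. At an unadjusted p under 0.05 there were 12 by edgeR, 12 by limma-voom and 6 with the block. All rows at that p numbered 2789, 2609 and 1428 of 18606. Adjusted p by limma-voom was 0.257 for Sdc2 and 0.224 for Sdc3.

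Deviations of same-numbered libraries from their group means correlated at -0.26 to -0.02, and 0 of 6 libraries correlated best with its own number. Of the other pairs, WT 5 with DKO 1 had 0.446, WT 4 with DKO 5 had 0.444 and WT 1 with DKO 4 had 0.271. The remaining pairs had -0.39 to -0.142. With 3 libraries in a group these values cannot settle whether the samples were paired. With the replicate block the adjusted p was 0.199 for Sdc2, 0.0796 for Sdc3 and 0.157 for Tgfbr3.

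With total counts as size factors the log2 fold change turned to -0.15 for Sdc1, -0.093 for Sdc4, -0.041 for Gpc4, -0.054 for Ext2, -0.069 for Tiam1 and -0.17 for Gpaa1. That scaling moved the median of all rows to -0.23, and relative to it these 6 genes kept positive values. With 1 library left out, Hs3st3b1 ranged from -0.23 without DKO 1 to 0.19 without DKO 4, and was 0.08 without WT 5. The cause was not tested. Of the single-gene values under the alternatives, 341 kept direction and side of the threshold, 23 lost the call, 4 gained one and 8 reversed, 6 of them under the total-count scaling. Gpc5 and Hs3st6 have no value under the filter of 10 counts in 3 libraries. Of the 9 steps in the order of levels, 6 held in every library, 5 with the longest transcript, and 6 to 7 with 1 library left out, for which no test was made. Counts of 1 to 4 limit Gpc5, and 3 libraries against 3 limit every fold change.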
